A study of Capra hircus with 3 samples.

Results

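The let-7 family of microRNAs (miRNAs) was followed tag by tag in small RNA libraries from the skin of Shanbei White cashmere goats at anagen, catagen and telogen, the growing, regressing and resting stages of the hair cycle. A tag is a distinct read sequence with the number of times it was read. Tags were taken as let-7 when their first 18 nt were those of a tag in the copy of the study's list used here, which is shortened, for a precursor of let-7a, let-7b, let-7c, let-7d, let-7e, let-7f, let-7g or let-7i, on either arm. This rule found 4694 of the 4043974 distinct clean tags, namely 2602 at anagen, 2245 at catagen and 3011 at telogen. They fell into 18 groups, each a member and a part of its precursor. The 107 listed let-7 tags all had reads, and 22901 further tags matched other listed miRNAs.

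Each stage was represented by 1 library, made from the pooled skin RNA of 10 adult goats, with no treatment named. The labels do not say whether the same goats were sampled at each stage. With no second library of any stage, the intervals and tests below cover counting error only and compare libraries, not stages. Because whole skin was used, a change in the number of cells of a type and a change in the RNA of each cell cannot be told apart.

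As background, a let-7 precursor folds into a hairpin from which a 5p and a 3p strand are cut, separated by a loop. One strand is kept in an Argonaute protein and pairs with messenger RNAs, mainly through its seed at bases 2 to 8, and the other is mostly lost. In animals let-7 is known for high levels in differentiated tissue and low levels in early embryonic cells, where the protein LIN28 binds the precursors and hinders their maturation. The 3′ end of a mature strand is the end at which bases are trimmed or added after cutting.

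The most read 5p tag of each member with a listed 5p start is shown first, since the results turn on the few bases at which the members differ and on where each tag ends. Tags are written 5′ to 3′ with T for U, as in the deposited files, and the capitals mark the seed.
let-7a 5p: tGAGGTAGtaggttgtatagtt
let-7b 5p: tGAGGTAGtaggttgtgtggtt
let-7c 5p: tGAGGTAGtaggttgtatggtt
let-7e 5p: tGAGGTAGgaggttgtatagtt
let-7f 5p: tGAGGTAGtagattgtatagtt
let-7i 5p: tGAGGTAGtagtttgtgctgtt
All 6 tags were 22 nt long and shared the seed. Counted from 1 at the 5′ end and with the let-7a base first, let-7c differed from let-7a by A19G, let-7e by T9G and let-7f by G12A. The let-7b tag differed by A17G and A19G, and the let-7i tag by G12T, A17G, T18C and A19T. G at base 17 was therefore held by let-7b and let-7i among these 6. Because let-7a and let-7c first differ at base 19, their tags have the same first 18 nt and form a shared group, let-7a/c. This group was also divided by base 19, A for let-7a and G for let-7c. The shortened list holds no start of the 5p strand of let-7d or let-7g, so that those strands were not analysed here, and the sums over the family leave them out.

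The most read 3p tag is shown for the 3 members whose 3p strands were read most, since most of the calls between libraries fell on these strands. Capitals again mark bases 2 to 8.
let-7d 3p: cTATACGAcctgctgcctttct
let-7b 3p: cTATACAAcctactgccttcct
let-7a 3p: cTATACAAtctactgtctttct
The tags of let-7a and let-7b shared bases 2 to 8, and the tag of let-7d did not share them.

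The libraries held 15997828 clean reads at anagen, 18111912 at catagen and 27016012 at telogen, and levels are given as reads per 1000000 clean reads (TPM). A level of 0 would allow up to 3 reads, between 0.111 and 0.188 TPM. Reads that matched any listed miRNA made up 45.0% of clean reads at anagen, 45.1% at catagen and 36.2% at telogen. The muscle list (miR-133a, miR-133b, miR-1 and miR-206, with tags for 4 of 4) summed to 4117 TPM at anagen, 78789 TPM at catagen and 21405 TPM at telogen, and thus differed far more between the libraries than the skin lists did. Of the skin epithelium list, 4 of 5 miRNAs had tags, summing to 1197, 1944 and 2018 TPM in the same order, and miR-205 made up most of it, while miR-183 ran the other way with 159, 109 and 102 TPM. The dermal mesenchyme list, with tags for 4 of 4, summed to 12869, 22850 and 18135 TPM, nearly all of it miR-199a. In it miR-143, which the shortened list holds in part, ran the other way with 308, 83.3 and 87.9 TPM. The study counted far more miR-143 reads in each library than were matched here, so the dermal sum leaves most of them out. The red blood cell list, with 3 of 3, summed to 1312, 2137 and 878 TPM, with miR-144 at 114, 92.0 and 9.33 TPM and miR-486 at 335, 779 and 438 TPM.

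let-7 tags took 6183759 reads at anagen, 5211515 at catagen and 7322965 at telogen. These were 38.7% of clean reads at anagen (95% Wilson interval 38.6% to 38.7%), 28.8% at catagen (28.8% to 28.8%) and 27.1% at telogen (27.1% to 27.1%). Among the reads of listed miRNAs, let-7 tags took 85.8% at anagen, 63.8% at catagen and 74.9% at telogen. The share was highest at anagen by both measures, while catagen and telogen changed places between them.

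Among the 5p strands, let-7a was read most, with 133415 TPM at anagen, 99324 TPM at catagen and 91869 TPM at telogen after division by base 19. let-7f followed with 126040, 84083 and 75046 TPM, and let-7b with 97237, 80164 and 80306 TPM. In telogen let-7b thus stood above let-7f, the reverse of their order at anagen and catagen. let-7c had 22484 TPM at anagen, 18829 TPM at catagen and 18829 TPM at telogen. Far lower came let-7i with 3953, 2756 and 2591 TPM and let-7e with 2812, 2277 and 2165 TPM. The order let-7c, let-7i, let-7e below the 3 most read members was the same in each library. Tags of the let-7a/c group too short to show base 19 or with another base there made up 400, 143 and 101 TPM, respectively.

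**Figure D1:**
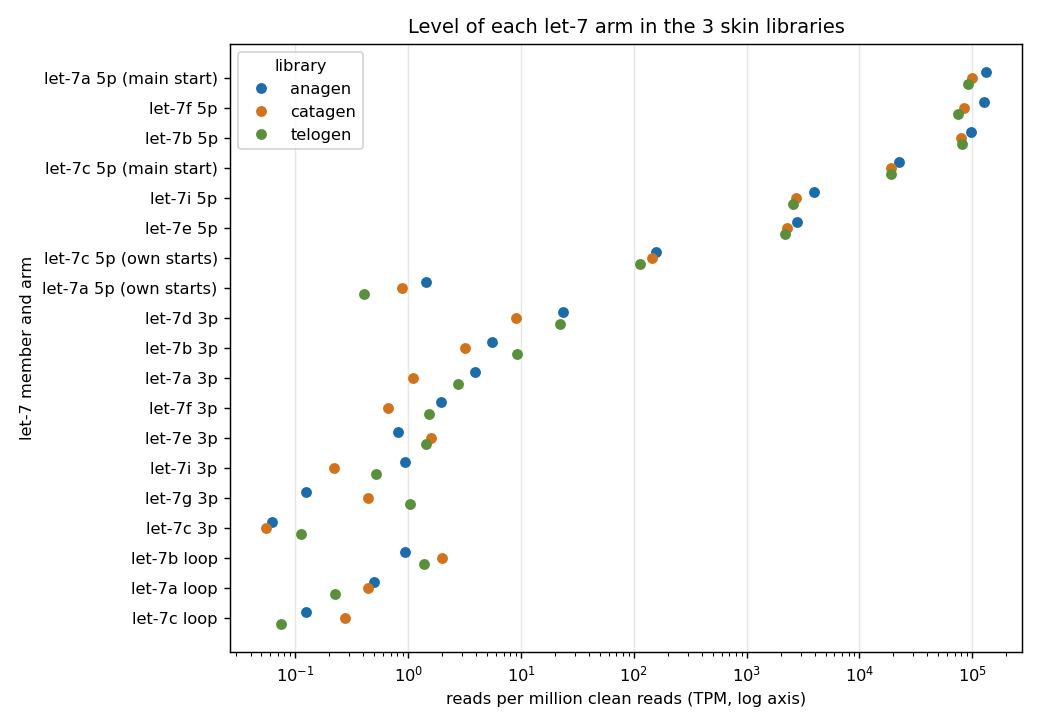
Level of each let-7 member and arm in the anagen, catagen and telogen libraries, in TPM on a log axis; each point is 1 library, without replicates. The 5p strands of let-7a, let-7b, let-7c, let-7e, let-7f and let-7i (own starts of let-7a and let-7c apart) lie between 2165 and 133415 TPM, and every 3p and loop group lies under 24 TPM.

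Summed over the family, let-7 was 386537 TPM at anagen and 287740 TPM at catagen, a log2 ratio of 0.43 (95% interval 0.42 to 0.43). Against the 271060 TPM of telogen, the log2 ratio of anagen was 0.51 (0.51 to 0.51). Catagen over telogen came to 0.09 (0.08 to 0.09), and this small difference changed sign when levels were scaled to miRNA reads (−0.23) or by median-of-ratios size factors (−0.034). In each pair the p-value of the exact Audic-Claverie test, which compares read counts of 2 libraries, was too small to be stored. None of the 3 ratios reached the 2-fold change that was also required of a call. Over all groups tested, the median log2 ratio of anagen was −0.43 against catagen and −0.30 against telogen, and that of catagen against telogen was 0.11. When the muscle miRNAs were taken out of the clean reads, the anagen over catagen ratio of the let-7 sum was 0.31.

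By member, let-7f differed most among the well-read 5p strands, with a log2 ratio of 0.58 (95% interval 0.58 to 0.59) for anagen over catagen and 0.75 (0.75 to 0.75) for anagen over telogen. let-7i gave 0.52 (0.50 to 0.54) and 0.61 (0.59 to 0.63), let-7a, by base 19, 0.43 (0.42 to 0.43) and 0.54 (0.54 to 0.54), and let-7e 0.30 (0.29 to 0.32) and 0.38 (0.36 to 0.40). let-7b gave 0.28 (0.28 to 0.28) and 0.28 (0.27 to 0.28), and let-7c, by base 19, 0.26 in both. The 5p strands of these 6 members were thus all higher at anagen than in the other libraries, by different amounts whose counting intervals did not overlap between let-7f and any of the others. The ratio of let-7f to telogen was past 2-fold with size factors (1.02), and that of let-7b turned to −0.039 with scaling to miRNA reads. Counted by the most abundant tag alone, let-7b was at −0.10 and let-7i at −0.75 over catagen, and let-7i at −0.072 over telogen. Over tags of 21 nt or longer, let-7i was at −0.40 over catagen. Between catagen and telogen the 5p ratios were small, at 0.16 for let-7f, 0.11 for let-7a, 0.09 for let-7i and 0.07 for let-7e. They were −0.0026 (−0.0056 to 0.00047, exact p = 0.098) for let-7b and 4.9e-06 for let-7c by base 19. The shifted starts of let-7c, with 2621 reads at catagen and 3033 at telogen, were at 0.37 (0.29 to 0.44). Their ratios were 0.11 for anagen over catagen and 0.48 for anagen over telogen. With scaling to miRNA reads let-7a/c, let-7e, let-7f and let-7i turned to between −0.24 and −0.15. For let-7i the ratio was 0.52 (0.50 to 0.54) over reads of 21 nt or longer and 0.68 (0.65 to 0.70) over reads of 22 nt.

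Calls were made at an absolute log2 ratio over 1 and an exact p under 0.01, among groups of at least 1 TPM in either library. For anagen over catagen, 3 of 13 let-7 groups were called, all higher at anagen, and 27.4% of the 292 groups of all miRNAs tested were called (5.14% higher at anagen and 22.3% lower). The 3 were the 3p strands of let-7a, let-7d and let-7f. Of these, let-7f 3p reached 1 TPM only at anagen, where it was higher (1.94 against 0.663 TPM), so no conclusion is drawn from its call. With the fold left aside, 10 of the 13 let-7 groups were higher at anagen at p under 0.01 and 0 were lower. Of all groups, 14.7% were higher and 46.2% lower. The 10 include let-7f 3p, which passed the minimum only through anagen. Groups with many reads, such as most let-7 5p strands, reach p under 0.01 at small ratios. No conclusion is therefore drawn from the counts at p under 0.01 alone, here or in the other pairs. At an unadjusted p under 0.05, let-7b loop was lower at anagen (p = 0.017, exact test). It reached 1 TPM only at catagen, where it was higher (1.99 against 0.938 TPM), so no conclusion is drawn from this difference. For anagen over telogen, 2 of 14 let-7 groups were called against 24.8% of 290 over all miRNAs (5.52% higher at anagen and 19.3% lower). One was higher at anagen, the shifted starts of let-7a 5p (1.44 against 0.407 TPM), and one lower, let-7g 3p (0.125 against 1.04 TPM). Each reached the minimum of 1 TPM only in the library where it was higher, so no conclusion is drawn from these calls. At p under 0.01 alone, 7 of 14 were higher at anagen and 2 lower, where 18.6% and 44.5% of all groups were. The 7 include the shifted starts of let-7a 5p, and the 2 include let-7g 3p. At an unadjusted p under 0.05, let-7a 3p was also higher at anagen (p = 0.040, exact test). Catagen over telogen gave 3 calls of 13, all lower at catagen, with 13.1% of 290 called over all miRNAs (5.86% lower at catagen and 7.24% higher). These were the 3p strands of let-7a, let-7b and let-7d. With edgeR's exact test at an assumed coefficient of variation of 0.4, 0 let-7 groups were called in each pair, where 2.74%, 5.17% and 0.69% of all groups were. With at least 100 reads in both libraries, 1, 0 and 1 of 7 let-7 groups were called, where 18.1%, 13.3% and 8.38% of all groups were. At p under 0.01 alone, 5 of 13 were higher at catagen and 3 lower, where 30.7% and 19.7% of all groups were.

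**Figure D2:**
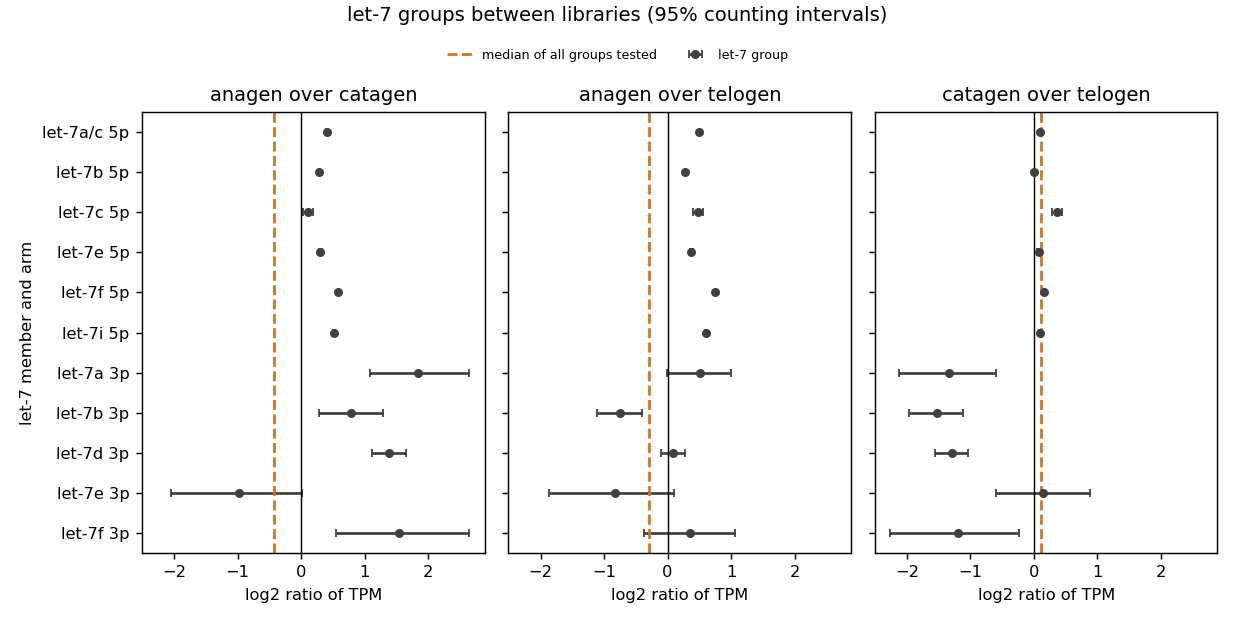
Log2 ratio of TPM for let-7 groups in each pair of libraries, with 95% counting intervals; the dashed line is the median over all miRNA groups tested. The 5p strands sit to the right of 0 in both comparisons with anagen, and the 3p strands of let-7a, let-7b, let-7d and let-7f sit past −1 in the panel of catagen over telogen, of which let-7f was not called (exact p = 0.011).

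The 3p strands were read very little at the starts that the shortened list holds. Their 8 groups together had 590 reads at anagen, 296 at catagen and 1050 at telogen, or 36.9, 16.3 and 38.9 TPM, and were lowest at catagen. let-7d 3p, the most read of them, had 377, 164 and 600 reads (23.6, 9.05 and 22.2 TPM). Catagen was well below the other libraries. The log2 ratio was 1.38 (95% interval 1.11 to 1.65, exact p = 1.0e-26) for anagen over catagen, −1.29 (−1.55 to −1.04, exact p = 8.2e-28) for catagen over telogen and 0.09 (−0.10 to 0.27, exact p = 0.36) for anagen over telogen. The last ratio moved with the scaling, to 0.36 (exact p = 0.00020) with size factors and to −0.23 (exact p = 0.016) with scaling to miRNA reads. let-7b 3p had 88, 58 and 250 reads and was highest at telogen, with catagen over telogen at −1.53 (−1.97 to −1.11, exact p = 1.8e-15) and anagen over telogen at −0.75 (−1.12 to −0.39, exact p = 1.8e-05). let-7a 3p had 63, 20 and 75 reads and let-7f 3p 31, 12 and 41, both lowest at catagen. Their anagen over catagen ratios were 1.83 (1.09 to 2.64, exact p = 8.4e-08) and 1.55 (0.55 to 2.64, exact p = 0.00092). In that pair let-7f 3p was tested only through its level at anagen, where it was higher.

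let-7e 3p had 13, 29 and 39 reads, let-7i 3p 15, 4 and 14, let-7g 3p 2, 8 and 28, and let-7c 3p 1, 1 and 3. For let-7g 3p the ratio of anagen over telogen was −3.05 with a counting interval from −6.17 to −1.06. That of catagen over telogen was −1.23 (−2.57 to −0.06, exact p = 0.038), which was not a call. Because let-7g 3p reached 1 TPM only at telogen, where it was highest (1.04 TPM), no conclusion is drawn from these ratios. let-7e 3p did not pass in any pair. let-7i 3p and let-7c 3p stayed under 1 TPM in every library and were not tested. Groups called loop were those that paired too little with the 5p strands to be called 3p, and they were not placed on the hairpin. Their reads were 25, 49 and 45 in all, with 15, 36 and 37 for let-7b, 8, 8 and 6 for let-7a and 2, 5 and 2 for let-7c.

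The balance of the strands, counted over the listed starts, differed between members by orders of magnitude. The shortened list holds 7 tags of let-7a 3p, 4 of let-7f 3p and 3 each of let-7b 3p and let-7e 3p. It holds 2 of let-7i 3p and 1 of let-7c 3p. Reads of 3p strands with other starts were not counted, and how far this bears on the differences between members was not tested. Per 1000000 reads of both strands of let-7e, 289 were 3p at anagen (95% interval 169 to 494), 703 at catagen (489 to 1009) and 666 at telogen (487 to 911). For let-7i they were 237 at anagen (144 to 391) and 80.1 at catagen (31.2 to 206), and telogen lay between these. The corresponding values of the 3 libraries were 56.6, 39.9 and 115 for let-7b, 29.5, 11.1 and 30.2 for let-7a and 15.4, 7.88 and 20.2 for let-7f. For let-7c these shares were 2.76, 2.91 and 5.86. The 3p share was lowest at catagen for let-7a, let-7b, let-7f and let-7i, although for let-7b, let-7f and let-7i the intervals of anagen and catagen overlapped. For let-7e catagen was above anagen, with intervals that overlapped slightly. Intervals for let-7e, from 169 to 1009, did not reach those of let-7a, let-7b, let-7c or let-7f in any library.

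The ends of the 3p tags also varied. The most read let-7d 3p tag, shown above, had 221 reads at anagen, 99 at catagen and 356 at telogen, and the next one, ctatacgacctgctgcctttca, had 37, 16 and 67. Of let-7b 3p, the tag shown above had 54, 37 and 148 reads, and the tag 1 base shorter 16, 16 and 59. The most read let-7a 3p tag, with 18, 12 and 17 reads, was not itself a listed tag, while the listed form, ctatacaatctactgtctttcc, had 7, 2 and 14.

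The members also differed in the length of their 5p reads. let-7f was the most uniform, with 84.0% of its reads at 22 nt at anagen, 83.0% at catagen and 83.5% at telogen. let-7a followed with 78.9%, 77.9% and 77.5%, and let-7c with 69.7%, 73.2% and 70.7%. In let-7e, 61.9%, 61.4% and 61.0% of reads were of 22 nt and 27.7%, 26.7% and 28.0% of 23 nt. let-7b had 42.9%, 41.0% and 44.0% of its reads at 23 nt and 32.6%, 42.1% and 36.1% at 22 nt, so that the longer form was the more frequent at anagen and telogen. let-7i had a large peak at 19 nt, with 38.3% of its reads at anagen (95% Wilson interval 37.9% to 38.7%), 5.12% at catagen (4.93% to 5.32%) and 21.9% at telogen (21.6% to 22.2%).

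**Figure D3:**
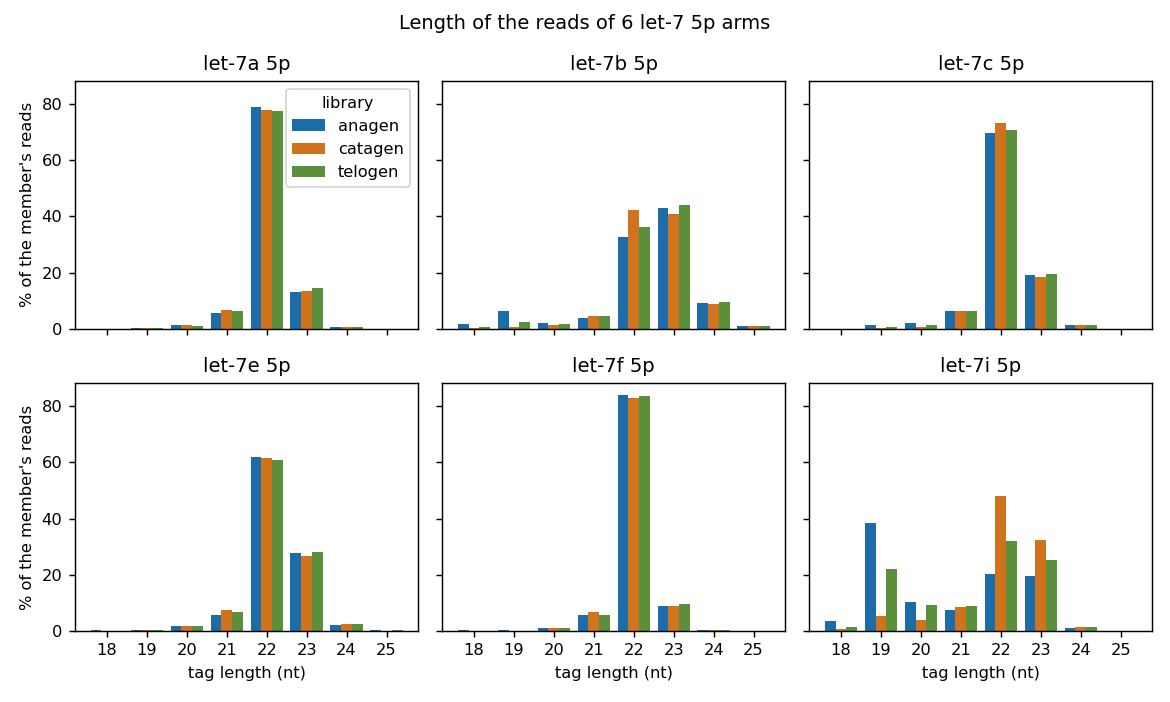
Share of the reads of each let-7 5p strand at lengths from 18 to 25 nt, in percent of the member's reads, for the anagen, catagen and telogen libraries (bars). let-7a and let-7f peak at 22 nt in each library, let-7b is divided between 22 and 23 nt, and let-7i has 38.3%, 5.12% and 21.9% of its reads at 19 nt.

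The 19-nt tag of let-7i and its full-length form are shown with the bases from 17 onward in capitals, since the short form ends just after the stretch at which let-7i differs from let-7a.
let-7i 5p, 22 nt: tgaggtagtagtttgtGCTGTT
let-7i 5p, 19 nt: tgaggtagtagtttgtGCT
The 19-nt tag had 24159 reads at anagen, 2504 at catagen and 15285 at telogen, and the 22-nt tag 12301, 23474 and 21832. In anagen the short tag outnumbered the full-length tag, and at catagen the order was the other way by a wide margin. The 2 forms hence moved in opposite directions. Tags of 19 nt were 10.7-fold higher at anagen than at catagen (log2 ratio 3.42, 95% interval 3.36 to 3.48), whereas let-7i reads of 22 nt had a log2 ratio of −0.73 (−0.76 to −0.70). For let-7i reads of 21 nt or longer the ratio was −0.40 (−0.42 to −0.38), and in total it was 0.52. The higher let-7i of anagen over catagen therefore lay in reads under 21 nt. Between anagen and telogen the total ratio of 0.61 fell to 0.12 (0.10 to 0.14) over reads of 21 nt or longer.

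Other members had the same excess of 19-nt reads at anagen at lower shares. let-7b had 6.35% of its reads at 19 nt at anagen, 0.609% at catagen and 2.33% at telogen, a 12.6-fold higher TPM at anagen than at catagen (log2 3.66, 95% interval 3.63 to 3.69). For let-7c the shares were 1.48%, 0.126% and 0.617%, a log2 ratio of 3.81 (3.67 to 3.96). let-7a had 0.349%, 0.124% and 0.158%, a 3.79-fold difference, and let-7f 0.231%, 0.0986% and 0.0998%, a 3.52-fold difference. let-7e had 0.345%, 0.141% and 0.18% with 155, 58 and 105 reads, a 3.03-fold difference. The log2 ratios of anagen over catagen for 19-nt reads were above 3 in let-7b, let-7c and let-7i and under 2 in let-7a, let-7e and let-7f. In the let-7b strand, reads of 22 nt had a log2 ratio of −0.09 (−0.10 to −0.08) between anagen and catagen, and reads of 21 nt or longer 0.16 (0.15 to 0.16).

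**Figure D4:**
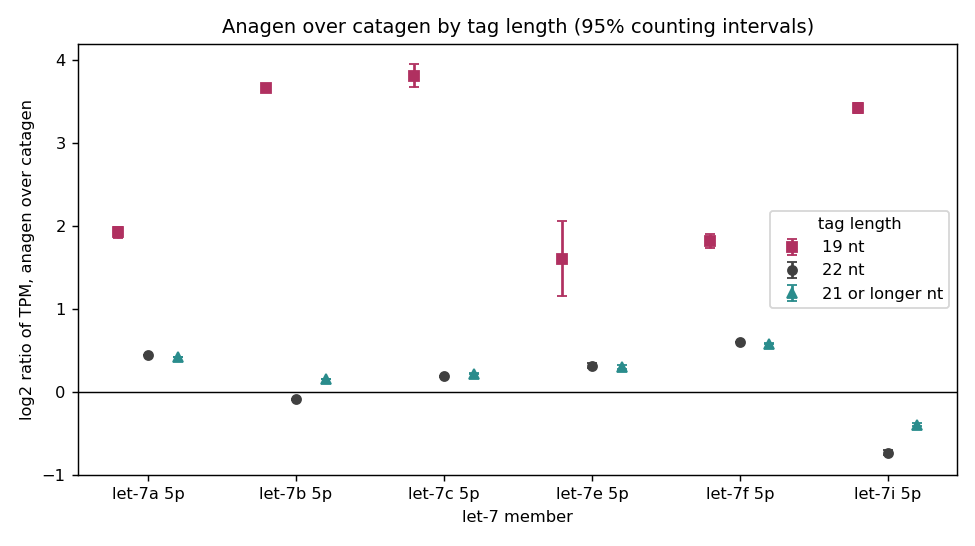
Log2 ratio of TPM, anagen over catagen, for reads of 19 nt, of 22 nt and of 21 nt or longer in each let-7 5p strand, with 95% counting intervals. Reads of 19 nt lie at or above 1.60 for every member, while reads of 22 nt lie below 0 for let-7b (−0.09) and let-7i (−0.73).

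Short reads were more frequent at anagen beyond let-7. Of 53 other miRNA groups with at least 1000 reads in each library, 51 had a higher share of reads of 18 to 20 nt at anagen than at catagen and 52 a higher share than at telogen. Their median share of 18 to 20 nt was 6.72% at anagen, 1.5% at catagen and 2.99% at telogen. The let-7 family as a whole had 4.44%, 1.64% and 2.55%. Against the same 53 groups, let-7i had a share of 19-nt reads that 2 groups exceeded in each library, and let-7b one that 7, 10 and 5 exceeded. let-7f was exceeded by 45, 34 and 45. Reads under 18 nt, which the authors removed, were 3.38% of high-quality reads at anagen, 2.66% at catagen and 0.566% at telogen. The part of library preparation or RNA quality in these shares was not tested.

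The 3′ ends were then compared with the listed precursor tags, which match the precursor and give the base that would follow the mature strand. In the listed tags, base 23 is G for let-7i and let-7e and U for let-7b. The most read tags of 23 nt are shown, with base 23 in capitals, and of let-7b also the next one.
let-7i 5p, 23 nt: tgaggtagtagtttgtgctgttT
let-7e 5p, 23 nt: tgaggtaggaggttgtatagttT
let-7b 5p, 23 nt with T: tgaggtagtaggttgtgtggttT
let-7b 5p, 23 nt with A: tgaggtagtaggttgtgtggttA
Of let-7i reads that held the full 22 nt, those of 23 nt ending in U were 37.7% at anagen (95% Wilson interval 37.1% to 38.3%), 30.8% at catagen (30.4% to 31.3%) and 33.1% at telogen (32.6% to 33.5%). Those with the templated G were 0.428%, 0.975% and 0.758%. In let-7e, U, which is not templated there, stood at base 23 in 16.1%, 15.1% and 15.5%, and G in 3.68%, 4.14% and 4.10%. For let-7b the listed base is U, and reads with it were 35.1%, 31.1% and 34.3%, so that added and templated U cannot be told apart at this base. The same holds for let-7a (7.37%, 7.66% and 7.99%) and let-7c (12.5%, 11.7% and 12.4%). A at base 23 is not templated in any of the 6 members. It was found in 13.0%, 10.9% and 11.9% of let-7b, 9.96%, 9.82% and 10.4% of let-7e and 9.46%, 7.07% and 8.66% of let-7i. In let-7f it was 5.31%, 5.38% and 5.61%. C was at or below 0.186% in every member and library.

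Counting every read whose 3′ end departs from the listed tags, of any length, gave tails on 7.76%, 7.76% and 8.5% of let-7a reads and on 6.26%, 6.29% and 6.56% of let-7f reads, at anagen, catagen and telogen. The share was 11.4%, 11.1% and 11.7% in let-7c, 27.2%, 26.4% and 27.9% in let-7b and 28.5%, 27.1% and 28.8% in let-7e. let-7i had 21.7% at anagen, 34.9% at catagen and 27.3% at telogen. Because the listed tags of let-7a, let-7b, let-7c and let-7f hold U at base 23, a U there was not counted as a tail. It was counted in let-7e and let-7i, so their shares cannot be compared with those of the other members. Among let-7a, let-7b, let-7c and let-7f the shares differed severalfold. For each member except let-7i, the 3 libraries lay within a few percentage points of each other. Tails of U alone were on 15.8%, 25.8% and 19.7% of let-7i reads and on 15.6%, 14.5% and 14.9% of let-7e reads. In let-7a, where U at base 23 was not counted, they were on 0.117%, 0.118% and 0.103% of reads. In let-7i the reads of 18 to 20 nt, which are too short to reach base 22, were 52.0%, 9.38% and 32.7% of the total.

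**Figure D5:**
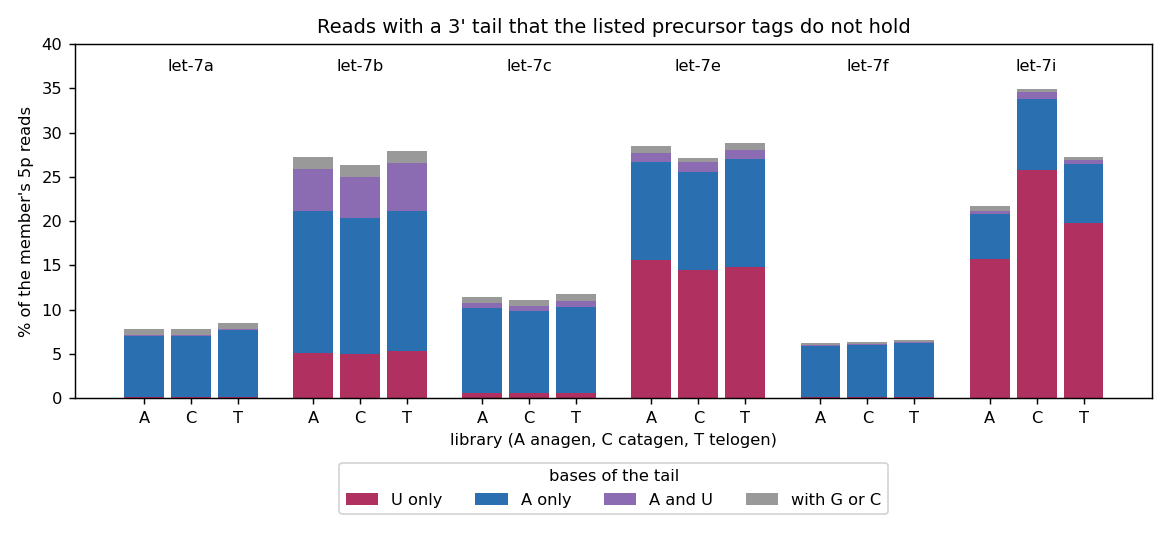
Share of each member's 5p reads, in percent, with a 3′ tail that the listed precursor tags do not hold, for anagen (A), catagen (C) and telogen (T), divided by the bases of the tail. Tails of U alone are on 15.8%, 25.8% and 19.7% of let-7i reads. Tails of A alone are the main kind counted in let-7a, let-7b, let-7c and let-7f. In these the listed tags hold U at base 23, so that U is not counted as a tail.

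The 5′ end, which sets the seed, was far more uniform. Of let-7b 5p reads, 99.8% started at the main base at anagen, 99.9% at catagen and 99.97% at telogen. A start 1 base later, which would move the seed by 1 base, had 2305 reads at anagen, 1094 at catagen and 301 at telogen, or 144, 60.4 and 11.1 TPM. The log2 ratio of this start was 1.25 (95% interval 1.15 to 1.36, exact p = 1.9e-133) for anagen over catagen and 2.44 (2.25 to 2.63, exact p = 4.4e-187) for catagen over telogen. The same start of let-7c had 655, 436 and 131 reads, with log2 ratios of 0.77 (0.59 to 0.94) and 2.31 (2.03 to 2.60), and that of let-7e had 79, 57 and 14. In each of these 3 members it was lowest at telogen.

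Shifted starts were counted where the list holds them, and for let-7a and let-7f it holds neither start next to the main one. Among the listed starts, that 1 base earlier had most reads with let-7c, at 1687, 2008 and 2776. The most read tags with the main start and with the earlier start are set side by side, with bases 2 to 8 of each in capitals.
let-7c 5p, main start: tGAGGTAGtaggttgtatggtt
let-7c 5p, 1 base earlier: tTGAGGTAgtaggttgtatggtt
The log2 ratio of the earlier start was −0.07 for anagen against catagen (95% interval −0.17 to 0.02, exact p = 0.13) and 0.04 against telogen (−0.05 to 0.13, exact p = 0.40). For catagen against telogen it was 0.11 (0.03 to 0.19, exact p = 0.0095). Both its neighbours, the main and the later start, were higher at anagen. At base 19 of the mature frame, 1447, 1798 and 2240 of its reads had the G of let-7c and 230, 201 and 529 the A of let-7a. The earlier start of let-7b had 7, 3 and 17 reads and that of let-7i 21, 9 and 8.

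Since the members differ by single bases, the reads with each other base at the same position were counted as a guide to misread bases. At base 9, the let-7e base (T9G) had 44902, 41187 and 58471 reads, and T9A had 239, 174 and 889 and T9C 867, 329 and 629. At base 12, G12A, the let-7f base, had 2016364, 1522896 and 2027449 reads against 1907, 1296 and 1584 of G12T and 380, 238 and 332 of G12C. At base 17, A17G with the other bases of the let-7b start had 1552862, 1450520 and 2169002, and A17T 1616, 949 and 1661. At each of the 3 positions, the base that defines a member thus had far more reads in every library than a base that defines none.

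Some let-7 mature strands come from several precursors with the same mature bases. Reads long enough to reach the listed bases past the mature strand were few. For let-7a, 26, 19 and 27 reads continued as let-7a-1, 1, 0 and 4 as let-7a-2 and 4, 4 and 5 as let-7a-3, at anagen, catagen and telogen. For let-7f, 6, 4 and 11 reads continued as let-7f-1 and 6, 6 and 13 as let-7f-2. The shares of the precursors in the mature reads were therefore not determined here.

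In the RefSeq goat annotation (ARS1.2), MIRLET7A and MIRLET7B lie next to each other, as do MIRLET7F and MIRLET7D, and no other miRNA gene lies within 10000 bases of MIRLET7G or MIRLET7I. MIRLET7C lies beside MIR99A, and MIRLET7E beside MIR99B. miR-99a had 9.13 TPM at anagen, 18 TPM at catagen and 12.9 TPM at telogen, and miR-99b 262, 358 and 363 TPM. Both were thus lowest at anagen, where let-7c and let-7e were highest. Lower levels at anagen were common, with a median log2 ratio over all groups tested of −0.43 against catagen and −0.30 against telogen. miR-100 and miR-125b, made with let-7 members in other clusters, had 108, 287 and 202 TPM and 515, 1395 and 1651 TPM, respectively.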

How the data were processed

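Small RNA of 3 skin libraries (anagen, catagen and telogen), each a pool of 10 goats, was analysed. The authors discarded adapter products, poly(A), low quality and anything below 18 nt, and deposited the count of each distinct clean tag. The deposited filtering records, with read counts and percent of high-quality reads, gave the reads under 18 nt. The aligner does not enter these files.

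Tags were matched by their first 18 nt to the 2697 tags (865 starts) in the copy of the study's list used here, which is shortened, and only its sequences and names were read. Listed tags of a miRNA that overlapped by 14 nt or more formed an arm. A 3p arm had at least 16 pairs with a listed 5p strand of any member. The remaining let-7 groups that were not 5p were called loop and were not placed on the hairpin. Starts shared by several miRNAs formed groups of their own, and 462 groups had reads. Counts were scaled per 1000000 clean reads (TPM). A count of 0 was set to 0.01 TPM. Groups with 1 TPM or more in either library were tested by the two-sided exact Audic-Claverie test (SciPy 1.17.1), and intervals of ratios are Clopper-Pearson, at 95%. Scripts were tested on simulated data. Alternatives included edgeR 4.0.16 with an assumed coefficient of variation. Intervals cover counting error only, as reads are not independent molecules. Every let-7 member and arm was to be accounted for, those with 100 or more reads in each library with values throughout, and of the other tags the most read of each kind. Marker miR-203 and miR-122, and miR-98, had no listed tag and were not analysed here, and miR-143, miR-200c, miR-214 and miR-125a are held in part. The members, lists and tests were chosen with earlier results of these data known.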

Additional observations from a re-analysis of the deposited data

Results flagged for a closer look

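Tags with the let-7 bases 2 to 8 but with no listed start stood outside the comparisons. They were 7396 tags with 266844 reads at anagen, 218935 at catagen and 287830 at telogen. The 3 starts with the most reads, with those bases in capitals, had 529288, 94967 and 7191 reads over the 3 libraries.
Start 1: tGAGGTAGtagtttgtac
Start 2: aGAGGTAGtaggttgcat
Start 3: tGAGGTAGtaagttgtat
Start 1 had 11081 TPM at anagen, 8662 TPM at catagen and 7223 TPM at telogen and differed from the let-7i start at 1 base of 18. Start 2 had 1753, 1532 and 1450 TPM and differed from let-7a at 2 bases, and start 3 had 126, 103 and 123 TPM and differed at 1. The list used here names none of them, and whether they are 5p strands of let-7d, let-7g or other members of the family was not determined here.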

How the results depend on the processing

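No paired analysis was possible because each stage had 1 library. Of 174 ratios recomputed for the let-7 sum and 7 groups, 147 kept direction and side of the call, 25 reversed and 2 became calls. The let-7 sum of anagen ranged from 0.25 to 0.82 over catagen and from 0.20 to 0.78 over telogen. Catagen over telogen reversed with scaling to miRNA reads, for the sum (−0.23), let-7a/c (−0.22), let-7e (−0.24), let-7f (−0.15) and let-7i (−0.23), and with size factors for the sum (−0.034), let-7a/c (−0.026), let-7e (−0.047) and let-7i (−0.031). let-7b, at −0.0026 there, became 0.085 without muscle miRNAs, 0.029 with listed tags, 0.032 at 21 nt or longer and 0.22 with its most abundant tag. Scaling to miRNA reads turned anagen over telogen of let-7b (−0.039) and let-7d 3p (−0.23). With the most abundant tag, anagen over catagen was −0.10 for let-7b, −0.081 for the shifted starts of let-7c and −0.75 for let-7i, and anagen over telogen of let-7i −0.072. At 21 nt or longer, let-7i anagen over catagen was −0.40, and without muscle miRNAs the shifted let-7c starts were at −0.00099. Listed tags alone hold 5, 6 and 18 reads of let-7f and 5, 0 and 4 of let-7i, and so gave let-7f −0.084, −1.09 and −1.01 in the 3 pairs and let-7i −3.89 in catagen over telogen. They made let-7e a call in anagen over telogen (1.11), as size factors did let-7f (1.02). The let-7 groups called, 3, 2 and 3, were 0 in each pair with edgeR at a coefficient of variation of 0.4 and 1, 0 and 1 with at least 100 reads in both libraries, where fewer groups were tested. At these settings, 2.74%, 5.17% and 0.69% and 18.1%, 13.3% and 8.38% of all groups were called. With edgeR at 0.1, Fisher's exact test or Benjamini-Hochberg adjustment they were again 3, 2 and 3. Without a minimum level they were 4, 2 and 3 of 18, where 18.7%, 16.9% and 10.3% of all groups were called. The share of let-7 reads of 18 to 20 nt was 4.43%, 1.63% and 2.54% with the main starts. Matching to RefSeq mature sequences was not run. Depth limits the 3p and loop groups, most of which have under 100 reads.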
